A study of Danio rerio with 6 samples.

Results

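The 65 skeletal muscle sarcomere genes described here were taken by gene symbol from 31452 zebrafish genes, of which 26925 had at least 1 count. A fixed pattern of names for troponins, tropomyosins, tropomodulins, leiomodins, alpha-actinins, myosins, myozenins, myomesins, myosin-binding proteins C, Ldb3, titins and nebulins matched 69 genes. The heart genes tnni1b and tnnt2a were left out, as was tnni3k, a kinase gene that shares only its name with the troponins. The tropomodulin-family gene lmod2a had 6 counts over all libraries and missed the minimum of 10, while the members nearest above that minimum, tnni1a and nebl, had 8 and 13 counts over the EWSR1-ERG libraries and 8 and 6 over the wild-type libraries.

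RNA was sequenced from whole zebrafish embryos at 3 days post fertilisation, in 6 libraries of 15 pooled embryos each. The 3 EWSR1-ERG pools expressed the fusion in neurons, from the cross of the Tg(14xUAS:GFP-EWSR1-ERG) line with fish carrying the driver Et(E1b:Gal4-VP16)s1101t and the reporter Tg(UAS:Kaede) s1999t. EWSR1-ERG joins parts of an RNA-binding protein and an ETS transcription factor and is found in Ewing sarcoma. The 3 wild-type pools were siblings that did not express it. The labels do not say whether those siblings carried the driver or the reporter, nor whether each pool was a clutch of its own. The p-values thus measure only the spread between these pools, which may be technical.

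The sarcomere is the contractile unit of striated muscle, in which thick filaments of myosin slide along thin filaments of actin. Troponin C binds calcium, troponin I blocks the thin filament at rest, troponin T anchors the complex to tropomyosin, and alpha-actinin, myozenin and Ldb3 sit at the Z-disc where thin filaments are anchored. In the zebrafish trunk, slow fibres form a superficial layer and fast fibres the bulk of the muscle, and each uses its own isoforms of most of these proteins. By 3 days the embryo swims, and it also has a beating heart, whose muscle shares some of these genes.

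The EWSR1-ERG libraries held 6474430, 5611197 and 13338802 counts, and the wild-type libraries held 5672149, 5154500 and 4771843 counts. Levels are given as CPM, counts scaled to a common library total after correction by TMM factors of 0.932 to 1.05, and a count of 0 allows up to 0.225 to 0.629 CPM. That limit covers counting error only. EWSR1-ERG replicate 3, the deepest library, carries the name of another sequencing lane than the other 5. Mitochondrially encoded genes took 2.82% ± 0.175 of the counts in EWSR1-ERG pools and 4.08% ± 0.243 in wild-type pools (SD, n = 3 each), without overlap. The calls with libraries scaled without these genes are given at the end, and any other part of this difference in the results below was not tested.

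No difference was detected in the share of RNA that the members took together. It was 4.55% ± 0.635 of all counts in EWSR1-ERG pools and 4.59% ± 0.211 in wild-type pools (SD, n = 3 each), and the groups overlapped. Within it, the genes that passed the test were mostly lower. Among slow members 8 were lower and 1 higher, and among fast members 6 were lower and 2 higher. By place, 11 were lower and 2 higher in the thin filament, 4 and 2 in the thick filament, and 5 and 2 at the Z-disc. Of the members classed here as non-muscle, 3 were higher and none was lower. The fast myosin heavy chain genes myhz1.1 and myhz1.2 passed as higher, but neither kept its call under every setting tried. The summed level of the fast myosin heavy chain members overlapped between the groups. Of the 65 members, 63 passed the filter on low counts, and of these 20 were lower and 6 were higher at an adjusted p under 0.05 (edgeR quasi-likelihood test, Benjamini-Hochberg over 17557 tested genes). Over all tested genes, 9.87% were lower and 7.45% higher, 17.3% in all. The median log2 fold change, EWSR1-ERG over wild type, was -0.22 among the tested members and 0.00 among all tested genes. In 27 members every EWSR1-ERG library lay below every wild-type library, and in 7 every one lay above, against 18.0% and 17.1% of all tested genes, or 35.1% in either direction. In pooled whole embryos, fewer cells of a type and less RNA per cell cannot be told apart.

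**Figure D1:**
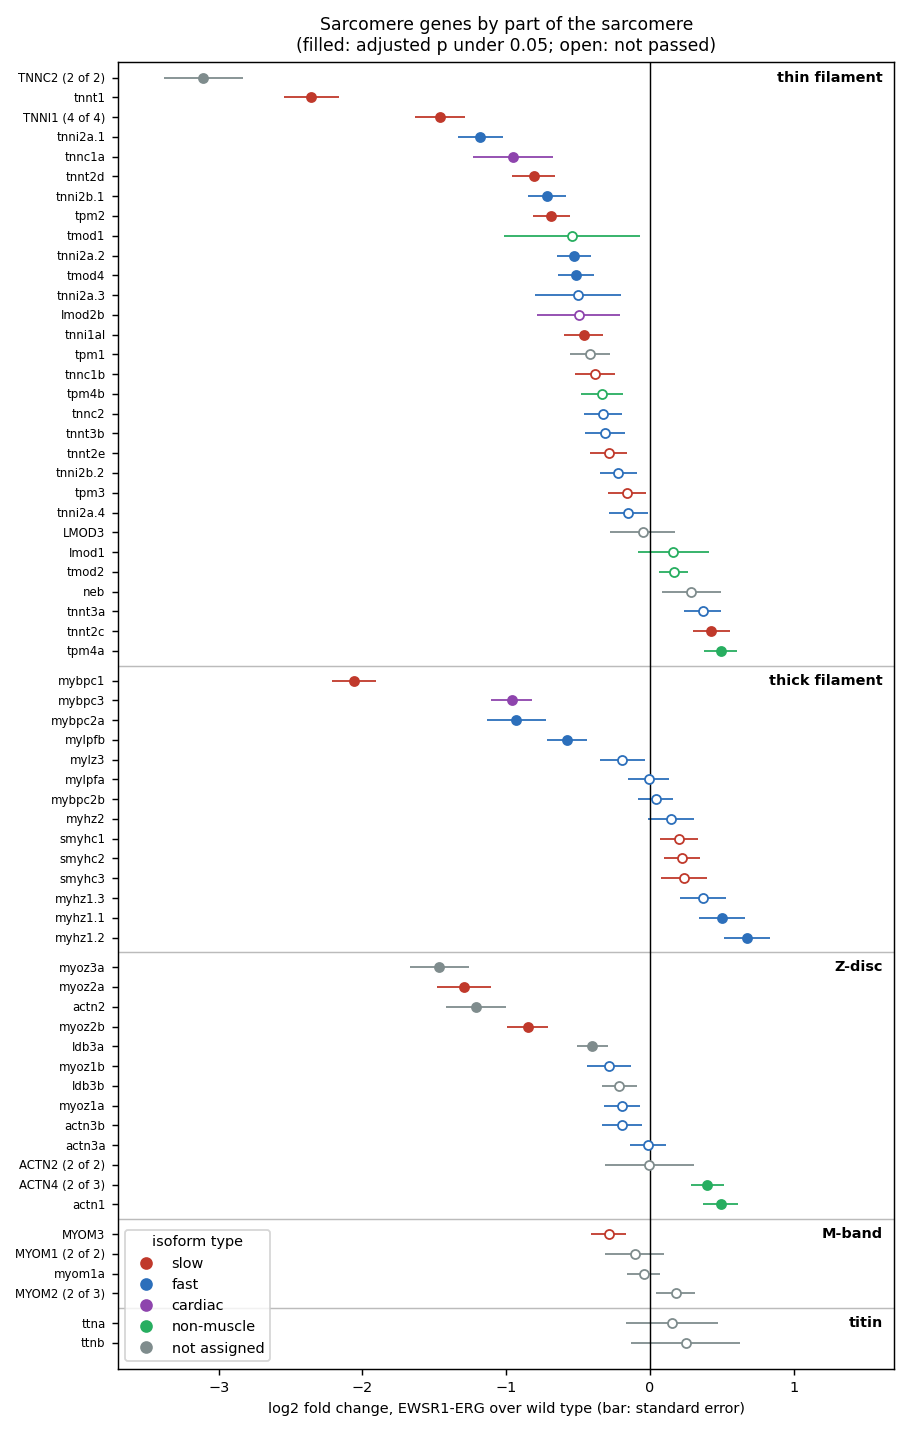
The log2 fold change (EWSR1-ERG over wild type, horizontal axis) of the 63 tested members, grouped by their place in the sarcomere and coloured by isoform type; each point is a gene, its bar the approximate standard error to either side, and filled points passed the test. The values run from -3.11 for TNNC2 (2 of 2) to 0.67 for myhz1.2.

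The name pattern also took in 8 genes classed here as non-muscle or smooth muscle isoforms, such as the tropomyosin gene tpm4a and the alpha-actinin genes actn1 and ACTN4 (2 of 3). Whether skeletal muscle or heart also expresses some of them was not tested. Of these 7 were tested, 3 were higher and none was lower, against 1308 higher and 1732 lower genes in the whole table. Their summed level was 608.6 ± 50 CPM in EWSR1-ERG pools and 477 ± 23.8 CPM in wild-type pools (SD, n = 3 each). Without these 8 genes, 56 members were tested, of which 3 were higher and 20 lower, with a median log2 fold change of -0.29.

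The largest falls, in TNNC2 (2 of 2) and tnnt1, were in the thin filament. Of 30 thin-filament members tested, 11 were lower and 2 higher, with a median log2 fold change of -0.40, and their summed level was 11959.9 ± 1386 CPM in EWSR1-ERG pools and 14354 ± 988 CPM in wild-type pools (SD, n = 3 each), without overlap. The largest differences in mean within that sum were in tnnc2 and tnnt3b, which did not pass (edgeR adjusted p = 0.113 and 0.141). They had 3167 and 3031 CPM in EWSR1-ERG pools and 3977 and 3765 CPM in wild-type pools. The sum leaves out thin-filament genes outside the member list. Of these, tpma had 5345, 6543 and 6895 CPM in EWSR1-ERG libraries and 6356, 6762 and 7063 CPM in wild-type libraries, overlapping. The actin gene actc1b averaged 17320 CPM in EWSR1-ERG pools and 20653 CPM in wild-type pools, also overlapping. Neither passed the test (edgeR adjusted p = 0.677 and 0.314). All 4 troponin C genes and all 8 tested troponin I genes had negative fold changes, and 2 and 5 of them passed the test. Of the 6 troponin T genes, 2 were lower and 1 was higher.

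The gene with the largest fall among the members was listed as TNNC2 (2 of 2) (ENSDARG00000095002, chromosome 23 of the Zv9 build), a troponin C gene named tnnc2.1 in the gene name table. It had 0.914, 1.92 and 2.45 CPM in the EWSR1-ERG libraries and 13.3, 17.5 and 18.4 CPM in the wild-type libraries. The groups lay far apart, although the EWSR1-ERG values rest on 6, 11 and 32 counts. The log2 fold change was -3.11 ± 0.27 (approximate SE; edgeR adjusted p = 3.15e-06), or 8.61-fold lower. Its chromosome also holds tnnc2, the troponin C gene with the most counts, which had 2803, 3185 and 3515 CPM in the EWSR1-ERG libraries and 3675, 4024 and 4232 CPM in the wild-type libraries. The tnnc2 groups did not overlap either, but the log2 fold change of -0.33 did not pass the test (edgeR adjusted p = 0.113). The cardiac-list gene tnnc1a, with 2.13, 2.09 and 2.67 CPM in EWSR1-ERG libraries and 3.71, 5.20 and 4.95 CPM in wild-type libraries, also fell (log2 fold change -0.95, edgeR adjusted p = 0.0301). The slow-list gene tnnc1b did not pass (log2 fold change -0.38, edgeR adjusted p = 0.0745). How the counting shared reads between such similar copies is not stated, so the split between them is uncertain.

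Slow troponin T followed. The gene tnnt1 (ENSDARG00000037954, chromosome 3), whose human counterpart is the slow skeletal troponin T, had 3.35, 3.31 and 2.98 CPM in the EWSR1-ERG libraries and 17.5, 15.8 and 15.5 CPM in the wild-type libraries. Both groups were tight and did not overlap, and the level was 5.12-fold lower in EWSR1-ERG pools (log2 fold change -2.35 ± 0.19, edgeR adjusted p = 1.34e-06). The cardiac-type paralog tnnt2d also fell, with 67.8, 74.0 and 93.4 CPM in EWSR1-ERG libraries and 117, 132 and 165 CPM in wild-type libraries (log2 fold change -0.81, edgeR adjusted p = 0.00194). Its paralog tnnt2c went the other way, with 46.7 ± 7.21 CPM in EWSR1-ERG pools and 34.7 ± 2.40 CPM in wild-type pools (SD, n = 3 each; edgeR adjusted p = 0.0361). The third paralog, tnnt2e, did not pass (log2 fold change -0.29, edgeR adjusted p = 0.145).

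Among fast troponin T genes neither passed, but their balance differed. The gene tnnt3a took 14.2% ± 0.333 of the troponin T counts of the members in EWSR1-ERG pools and 9.35% ± 0.0368 in wild-type pools (SD, n = 3 each), while tnnt3b took 79.8% ± 0.457 in EWSR1-ERG pools and 83.8% ± 0.581 in wild-type pools. These shares did not overlap between the groups. In level, tnnt3a had 541 ± 82.6 CPM in EWSR1-ERG pools and 420 ± 24.7 CPM in wild-type pools, with a log2 fold change of 0.37 (SD, n = 3 each; edgeR adjusted p = 0.0627).

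Troponin I, the inhibitory subunit, was lower in members of both the slow and the fast list. The slow-type gene listed as TNNI1 (4 of 4) (ENSDARG00000073766, chromosome 4), tnni1d in the gene name table, had 6.55, 10.3 and 8.86 CPM in the EWSR1-ERG libraries and 23.9, 21.0 and 25.9 CPM in the wild-type libraries. Every EWSR1-ERG value was below every wild-type value, and the log2 fold change was -1.46 ± 0.17 (edgeR adjusted p = 5.58e-05). A second gene of the slow list, tnni1al, which is tnni4b.2 in the gene name table, was also lower (log2 fold change -0.46, edgeR adjusted p = 0.0322). The fast troponin I gene tnni2a.1 (ENSDARG00000045592, chromosome 25) had 19.5, 32.6 and 29.4 CPM in the EWSR1-ERG libraries and 62.7, 58.2 and 64.3 CPM in the wild-type libraries, again without overlap (log2 fold change -1.18 ± 0.15, edgeR adjusted p = 0.000154).

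The tnni2a genes lie on the same chromosome under numbered names and may share reads, so their separate values are uncertain. Within them, tnni2a.2 was lower, with 118, 148 and 145 CPM in EWSR1-ERG libraries and 182, 196 and 217 CPM in wild-type libraries (log2 fold change -0.53, edgeR adjusted p = 0.00662). The copy with most of the counts, tnni2a.4, had 2387 ± 307 CPM in EWSR1-ERG pools and 2653 ± 215 CPM in wild-type pools (SD, n = 3 each), overlapping, and did not pass (edgeR adjusted p = 0.504). It took 81.0% ± 0.627 of the troponin I counts of the members in EWSR1-ERG pools and 77.1% ± 0.601 in wild-type pools. On chromosome 7, tnni2b.1 was lower, at 59.9, 86.0 and 69.9 CPM in EWSR1-ERG libraries and 105, 121 and 128 CPM in wild-type libraries (log2 fold change -0.72, edgeR adjusted p = 0.00195).

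Tropomyosins, which lie along actin and cover its myosin-binding sites, had 1 lower and 1 higher member of 5. The gene tpm2, of slow muscle, had 288, 383 and 367 CPM in EWSR1-ERG libraries and 517, 538 and 617 CPM in wild-type libraries, and fell without overlap (log2 fold change -0.69 ± 0.13, edgeR adjusted p = 0.00228). The gene tpm4a, classed here as non-muscle, rose, with 188, 148 and 169.7 CPM in EWSR1-ERG libraries and 111, 125 and 124 CPM in wild-type libraries (log2 fold change 0.49 ± 0.11, edgeR adjusted p = 0.00869). The slow-list tropomyosin with the most counts, tpm3, had 663, 588 and 543 CPM in EWSR1-ERG libraries and 590.5, 636 and 776 CPM in wild-type libraries. Its groups overlapped and it did not pass (log2 fold change -0.16, edgeR adjusted p = 0.466). Neither did tpm1 or the other tropomyosin classed as non-muscle, tpm4b, although every EWSR1-ERG library was below every wild-type library in both (log2 fold changes -0.42 and -0.34, edgeR adjusted p = 0.0542 and 0.14). At the filament ends, tmod4, a skeletal muscle tropomodulin that caps the pointed end, was lower, with 142 ± 20.4 CPM in EWSR1-ERG pools and 204 ± 20.8 CPM in wild-type pools (SD, n = 3 each; edgeR adjusted p = 0.0111). Nebulin (neb), the giant protein that runs along the thin filament, did not pass (log2 fold change 0.29, edgeR adjusted p = 0.404).

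**Figure D2:**
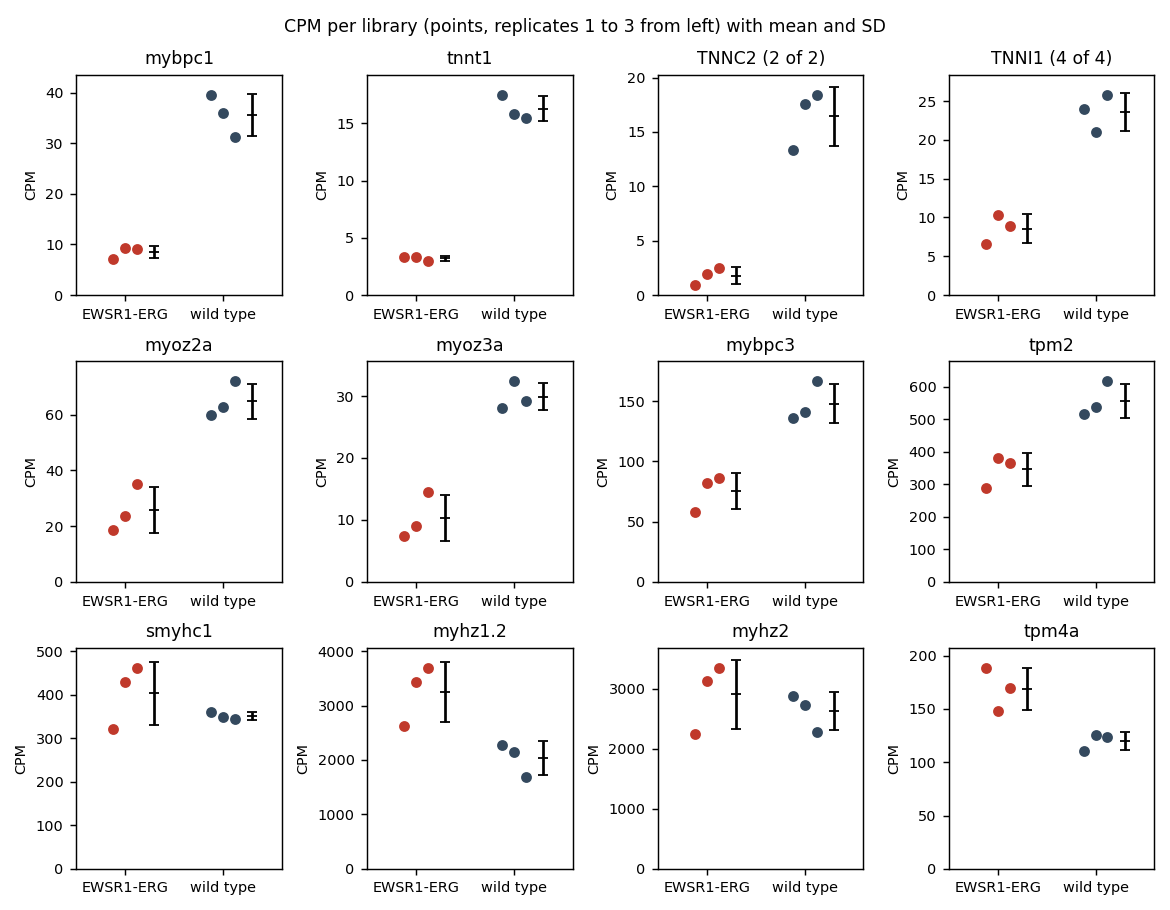
Level in CPM (vertical axes, linear and starting at 0, a scale of its own in each panel) of 12 members in each of the 6 libraries; points are replicates 1 to 3 from left, with EWSR1-ERG left of wild type, and the bar beside them is the mean with its SD. For tnnt1 the EWSR1-ERG points lie between 2.98 and 3.35 CPM and the wild-type points between 15.5 and 17.5 CPM, whereas the smyhc1 points overlap.

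Of 14 thick-filament members tested, 4 were lower (28.6%) and 2 higher (14.3%). The shares were 36.7% lower and 6.67% higher among thin-filament members, and 9.87% and 7.45% among all tested genes. The median log2 fold change of the thick-filament members was 0.09. Their summed level was 29822 ± 4882 CPM in EWSR1-ERG pools and 28132 ± 317 CPM in wild-type pools (SD, n = 3 each), overlapping. All 7 myosin heavy chain members had positive fold changes, 2 of them past the test, while 3 of the 4 myosin-binding protein C members and 1 of the 3 light chain members were lower. Myosin heavy chain genes outside the member list went both ways. The log2 fold changes of vmhc and vmhcl were -1.88 and -1.60, both past the test. Those of myhb, myh11a, myhc4 and myh6 were -0.62, -0.38, 0.34 and 0.30, none past the test. No test compared the filament classes with each other.

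Fast myosin heavy chains, the motor proteins of fast fibres, are encoded by near-identical copies on chromosome 5, so the split of reads between myhz1.1, myhz1.2, myhz1.3 and myhz2 is uncertain. The copy myhz1.2 had 2631, 3429 and 3685 CPM in EWSR1-ERG libraries and 2284, 2138 and 1688 CPM in wild-type libraries. All EWSR1-ERG values were above all wild-type values (log2 fold change 0.67 ± 0.16, edgeR adjusted p = 0.00922). For myhz1.1 the values were 3595, 4775 and 5114 CPM in EWSR1-ERG libraries and 3595, 3297 and 2633 CPM in wild-type libraries. It passed narrowly (log2 fold change 0.50, edgeR adjusted p = 0.0473) and is the 1 called member of 26 whose groups overlapped, EWSR1-ERG replicate 1 lying marginally below wild-type replicate 1. The 4 copies together held 12633 ± 2294 CPM in EWSR1-ERG pools and 9377 ± 1366 CPM in wild-type pools (SD, n = 3 each), and these sums also overlapped.

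As counted, some copies took different shares in the groups, which was not tested and depends on the uncertain split of reads. Shares here are of the myosin heavy chain counts of the members only, without genes outside the list such as myhc4. The copy myhz1.2 took 24.4% ± 0.379 of these counts in EWSR1-ERG pools and 20.4% ± 0.319 in wild-type pools (SD, n = 3 each), and myhz2 took 21.8% ± 0.418 in EWSR1-ERG pools and 26.4% ± 0.502 in wild-type pools. Neither share overlapped between the groups. The slow copies smyhc1, smyhc2 and smyhc3, on chromosome 24 and equally hard to separate, took 5.09% ± 0.0306 in EWSR1-ERG pools and 5.95% ± 0.692 in wild-type pools. In level smyhc1 had 322, 428 and 460.4 CPM in EWSR1-ERG libraries and 361, 349 and 343 CPM in wild-type libraries, overlapping (log2 fold change 0.20, edgeR adjusted p = 0.342), and smyhc2 and smyhc3 did not pass either (edgeR adjusted p = 0.25 and 0.37).

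Myosin-binding protein C forms stripes across the thick filament and tunes cross-bridge cycling, and its slow form fell most. The slow gene mybpc1 (ENSDARG00000045560, chromosome 4) had 7.16, 9.23 and 9.09 CPM in EWSR1-ERG libraries and 39.6, 36.0 and 31.2 CPM in wild-type libraries. The groups were far apart, with a log2 fold change of -2.06 ± 0.15 (edgeR adjusted p = 5.95e-07), or 4.17-fold lower, the smallest adjusted p among the members. The gene mybpc3 (ENSDARG00000011615, chromosome 7), whose human counterpart is the cardiac form, had 58.4, 82.4 and 86.1 CPM in EWSR1-ERG libraries and 136, 141 and 166 CPM in wild-type libraries, and fell as well (log2 fold change -0.96 ± 0.14, edgeR adjusted p = 0.000377). Of the fast pair, mybpc2a was lower, with 5.33, 7.31 and 9.47 CPM in EWSR1-ERG libraries and 14.0, 15.6 and 13.9 CPM in wild-type libraries (edgeR adjusted p = 0.00636), while mybpc2b had a log2 fold change of 0.04 (edgeR adjusted p = 0.874). Within the family, mybpc2b took 46.7% ± 2.86 of the counts of this family in EWSR1-ERG pools and 28.3% ± 0.872 in wild-type pools, and mybpc1 took 4.99% ± 0.358 in EWSR1-ERG pools and 13.0% ± 2.08 in wild-type pools (SD, n = 3 each).

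The regulatory light chain of fast muscle, which binds the myosin neck, is encoded by mylpfa and mylpfb. The gene mylpfb was lower, with 1078, 1312 and 1509 CPM in EWSR1-ERG libraries and 1807, 1951 and 2049.9 CPM in wild-type libraries (log2 fold change -0.57, edgeR adjusted p = 0.0111). Its partner mylpfa, the member with the highest mean CPM, had 7787, 9364 and 9962 CPM in EWSR1-ERG libraries and 8511, 9007 and 9787 CPM in wild-type libraries, fully overlapping (log2 fold change -0.01, edgeR adjusted p = 0.974). The share of mylpfb among the light chain counts of the members was 7.94% ± 0.184 in EWSR1-ERG pools and 10.8% ± 0.140 in wild-type pools (SD, n = 3 each). Light chain genes outside the list, such as myl1 and myl10, are not in that sum.

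**Figure D3:**
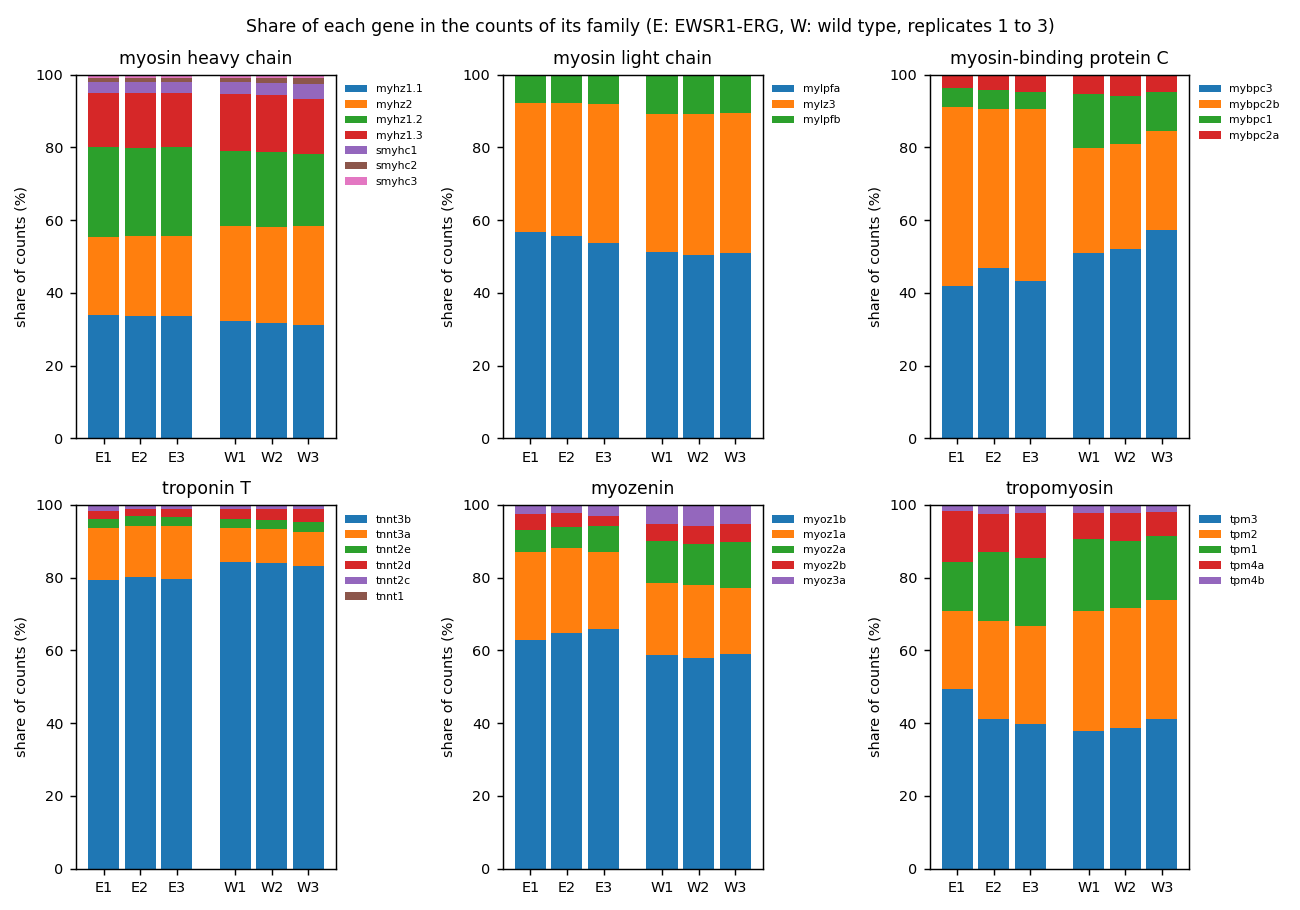
Stacked bars give the share of each member in the summed counts of the members of its family, in percent (vertical axis from 0 to 100), for 6 families and in each library. E1 to E3 are EWSR1-ERG replicates and W1 to W3 wild-type replicates. Genes outside the member list are not in the bars, such as the tropomyosin gene tpma (mean 6261 CPM in EWSR1-ERG and 6727 CPM in wild-type pools) and the light chain gene myl1. The mybpc2b share averages 46.7% in EWSR1-ERG and 28.3% in wild-type pools, and the mybpc1 share 4.99% in EWSR1-ERG and 13.0% in wild-type pools.

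At the Z-disc, 13 members were tested, of which 5 were lower (38.5%) and 2, both non-muscle alpha-actinins, were higher (15.4%). The shares among all tested genes were 9.87% and 7.45%. The median log2 fold change of the Z-disc members was -0.21. The myozenins, which tether calcineurin to the Z-disc, all had negative fold changes, and 3 of 5 passed. The gene myoz3a (ENSDARG00000067701, chromosome 14) had 7.47, 9.05 and 14.5 CPM in EWSR1-ERG libraries and 28.1, 32.4 and 29.2 CPM in wild-type libraries, without overlap (log2 fold change -1.47 ± 0.20, edgeR adjusted p = 0.000268). The gene myoz2a (ENSDARG00000012311, chromosome 7), of the form found in human slow and cardiac muscle, had 18.7, 23.7 and 35.0 CPM in EWSR1-ERG libraries and 59.8, 62.8 and 71.9 CPM in wild-type libraries (log2 fold change -1.29 ± 0.19, edgeR adjusted p = 0.00073). Its paralog myoz2b, at 13.9, 16.7 and 13.6 CPM in EWSR1-ERG libraries and 24.4, 27.4 and 27.4 CPM in wild-type libraries, fell too (log2 fold change -0.85, edgeR adjusted p = 0.000783). The fast forms myoz1a and myoz1b did not pass, with log2 fold changes of -0.19 and -0.29.

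Alpha-actinins cross-link actin at the Z-disc and, in other cells, along stress fibres. The gene actn2 (ENSDARG00000071090, chromosome 17), a sarcomeric form, had 4.88, 5.75 and 6.42 CPM in EWSR1-ERG libraries and 10.8, 13.5 and 16.2 CPM in wild-type libraries, without overlap (log2 fold change -1.21 ± 0.21, edgeR adjusted p = 0.00103). The fast-fibre form with the most counts, actn3a, had 689.6, 852 and 909.7 CPM in EWSR1-ERG libraries and 818, 861 and 799 CPM in wild-type libraries, overlapping (log2 fold change -0.02, edgeR adjusted p = 0.955). The non-muscle genes actn1 and ACTN4 (2 of 3) were higher, at 96.4 ± 15.5 and 226 ± 20.1 CPM in EWSR1-ERG pools and 68.6 ± 2.90 and 172 ± 17.1 CPM in wild-type pools (SD, n = 3 each; edgeR adjusted p = 0.0127 and 0.0267). The PDZ-LIM gene ldb3a was lower, with 88.3 ± 9.53 CPM in EWSR1-ERG pools and 117 ± 4.37 CPM in wild-type pools (SD, n = 3 each; edgeR adjusted p = 0.0206), and ldb3b did not pass (edgeR adjusted p = 0.258).

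None of the 4 M-band genes and neither titin passed the test. The myomesin gene myom1a, whose protein cross-links thick filaments at the M-band, had 146, 167 and 180.5 CPM in EWSR1-ERG libraries and 183, 174 and 152 CPM in wild-type libraries (log2 fold change -0.04, edgeR adjusted p = 0.849). Titin, the elastic filament from Z-disc to M-band, is encoded by ttna and ttnb on chromosome 9. The ttnb values were 219, 351 and 487 CPM in EWSR1-ERG libraries and 374, 344 and 173 CPM in wild-type libraries, and the spread within each group exceeded the difference between them (log2 fold change 0.25, edgeR adjusted p = 0.726).

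By fibre class, 16 of 17 slow members were tested, of which 8 were lower and 1 higher, with a median log2 fold change of -0.42. Leaving out the 3 tnnt2 paralogs, whose fibre type is uncertain, 7 of 13 were lower and none was higher, with a median of -0.46. The gene tnni1al, of another name in the gene name table, was kept among these. Of 23 fast members, 6 were lower (26.1%) and 2 higher (8.7%), with a median of -0.19. The summed slow level was 2303 ± 181 CPM in EWSR1-ERG pools and 2783 ± 239 CPM in wild-type pools, without overlap, and the summed fast level was 40448 ± 6275 CPM in EWSR1-ERG pools and 40831 ± 836 CPM in wild-type pools, overlapping (SD, n = 3 each). Within the slow sum, the largest difference in mean was in tpm2. This gene had 346 ± 50.6 CPM in EWSR1-ERG pools and 557 ± 53.0 CPM in wild-type pools (SD, n = 3 each). The slow sum was 5.74% ± 0.475 of the fast sum in EWSR1-ERG pools and 6.81% ± 0.494 in wild-type pools, without overlap. In the thin filament 5 of 9 slow members were lower and 1, tnnt2c, was higher, and 4 of 10 fast members were lower and none was higher, with medians of -0.46 and -0.41. In the thick filament 1 of 4 slow members was lower, and 2 of 9 fast members were lower and 2 higher, with medians of 0.21 and 0.04. The slow myosin genes smyhc1, smyhc2 and smyhc3 had positive log2 fold changes of 0.20, 0.22 and 0.24, none past the test. Their summed level was 679 ± 127 CPM in EWSR1-ERG pools and 586 ± 17.5 CPM in wild-type pools (SD, n = 3 each), overlapping. The positive median of the slow thick-filament members thus rests on these smyhc copies, which are hard to separate. The remaining slow thick-filament member, mybpc1, was lower (log2 fold change -2.06). No test was made of the difference between slow and fast members.

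The libraries were not alike within a group. EWSR1-ERG replicate 1 had the lowest level of its group in 50 of 63 tested members, and EWSR1-ERG replicate 3 the highest in 42. All 7 myosin heavy chain members were lowest in EWSR1-ERG replicate 1 among its group, and 6 of 7 in wild-type replicate 3. The ratio of the highest to the lowest library had a median of 1.37 over the tested members in EWSR1-ERG pools and 1.2 in wild-type pools.

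**Figure D4:**
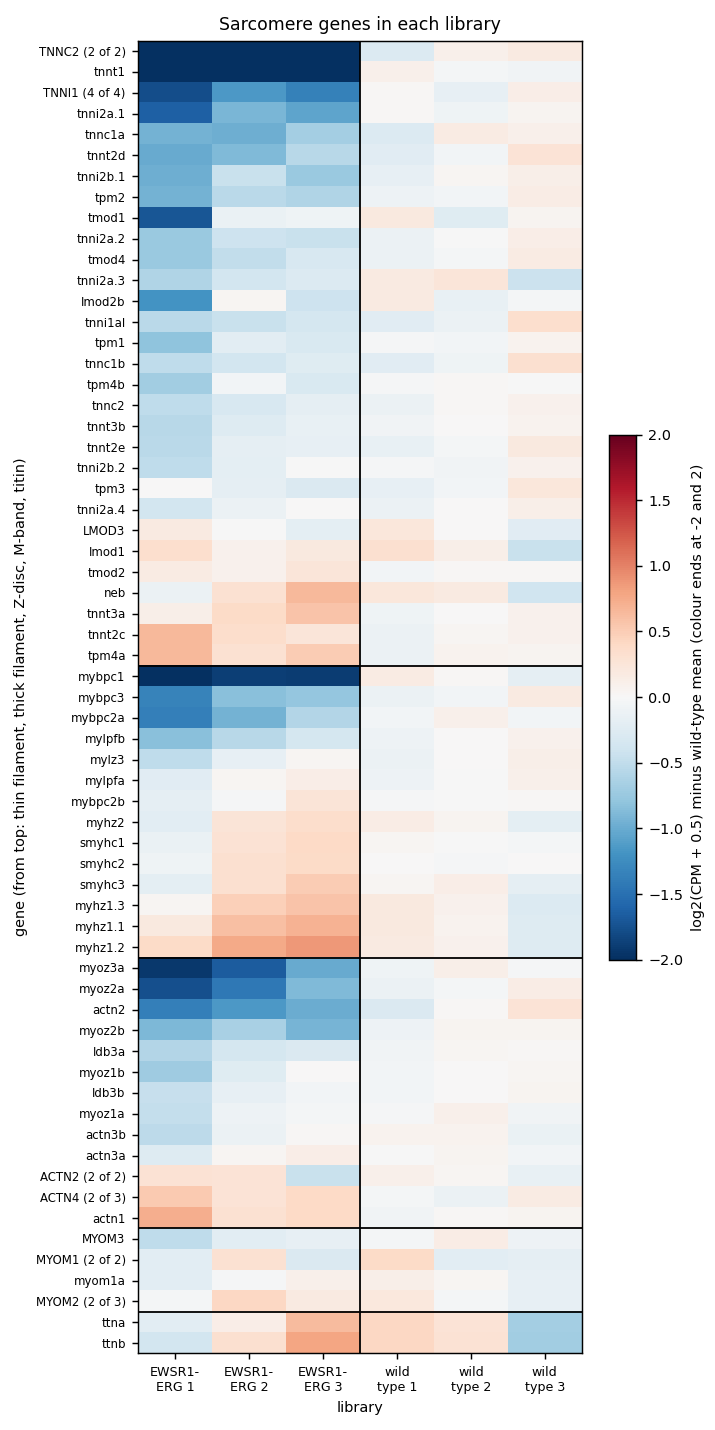
Level of each tested member (rows, grouped by filament) in each of the 6 libraries (columns, EWSR1-ERG left), as log2(CPM + 0.5) minus the mean of the wild-type libraries for that gene; blue is lower, red is higher, and colour ends at -2 and 2. EWSR1-ERG replicate 1 is the lowest of its group in 50 of 63 members.

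Leaving out single libraries changed several calls. Without EWSR1-ERG replicate 1, 10 members were higher and 18 lower, and smyhc1, smyhc2, smyhc3, myhz1.3 and tnnt3a passed as higher with log2 fold changes of 0.34, 0.36, 0.41, 0.52 and 0.48, while tnnc1a, tnni1al and tnnt2c no longer passed. Without EWSR1-ERG replicate 2, 4 were higher and 18 lower, with ldb3a, myhz1.1, tnnc1a, tnni1al and tnnt2c lost and tpm1 gained as lower. Without EWSR1-ERG replicate 3, 4 were higher and 20 lower, with ACTN4 (2 of 3) and myhz1.1 lost. Without wild-type replicate 1, 2 were higher and 21 lower, and tpm4a, actn1, ACTN4 (2 of 3) and tnnt2c no longer passed, while tnnc1b passed as lower. Without wild-type replicate 2, 1 was higher and 15 lower, and the genes that no longer passed were actn1, ACTN4 (2 of 3), ldb3a, myhz1.1, myhz1.2, mylpfb, tmod4, tnnc1a, tnni1al and tnnt2c. Without wild-type replicate 3, 6 were higher and 18 lower, with myhz1.1, tnnc1a and tnni1al lost and tnnt3a gained as higher. The count over all genes was smaller without wild-type replicate 1 or 2 as well, at 718 higher and 1135 lower without wild-type replicate 1 and at 645 higher and 981 lower without wild-type replicate 2. Of the 20 lower members, 15 kept their call under every setting tried, namely mybpc1, tnnt1, TNNC2 (2 of 2), TNNI1 (4 of 4), tnni2a.1, myoz3a, mybpc3, myoz2a, myoz2b, actn2, tnnt2d, tnni2b.1, tpm2, mybpc2a and tnni2a.2. No higher member did so.

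Heart muscle genes outside the list also moved. Of 9 tested, 6 were lower (66.7%) and 2 higher (22.2%), against 9.87% lower and 7.45% higher among all tested genes. Their median log2 fold change was -0.72, and their summed level ranged from 92.1 to 116 CPM in EWSR1-ERG pools and from 163 to 167 CPM in wild-type pools. The other 4 genes matched on the list were too low to test, and none of the 13 had 0 counts in all libraries. The ventricular myosin gene vmhcl had 5.94, 4.88 and 6.95 CPM in EWSR1-ERG libraries and 20.1, 18.5 and 16.9 CPM in wild-type libraries (log2 fold change -1.60, edgeR adjusted p = 2.83e-05), and the natriuretic peptide gene nppa had 31.5, 27.5 and 32.6 CPM in EWSR1-ERG libraries and 10.4, 9.05 and 8.77 CPM in wild-type libraries (log2 fold change 1.69, edgeR adjusted p = 2.95e-06). Of members taken here as also expressed in the heart, mybpc3, tnnc1a and actn2 were lower. The member tpm4a, classed here as non-muscle, was higher (log2 fold change 0.49, edgeR adjusted p = 0.00869). Whether the heart expresses tpm4a was not tested. The cardiac-list member lmod2b overlapped between the groups and did not pass (log2 fold change -0.50, edgeR adjusted p = 0.276). The titin genes ttna and ttnb had positive log2 fold changes of 0.15 and 0.25, neither past the test. The part of heart RNA in the values of these members was not tested. Of the 3 members on the cardiac list, 2 were lower, and the summed level of the 3 was 82.9 ± 17.1 CPM in EWSR1-ERG pools and 159 ± 16.3 CPM in wild-type pools (SD, n = 3 each). Most of that sum was mybpc3, at a mean of 75.6 CPM in EWSR1-ERG pools and 148 CPM in wild-type pools. Smooth muscle genes were lower in 2 of 5 tested (40.0%), smtnb and acta2 (log2 fold changes -1.25 and -1.08, edgeR adjusted p = 0.000399 and 0.00378). A further 3 matched smooth muscle genes were too low to test. The summed level of the tested smooth muscle genes was 107 to 193 CPM in EWSR1-ERG pools and 245 to 288 CPM in wild-type pools. Red cell genes, a list included because tmod1 is also a red cell membrane gene, were higher in 4 of 7 (57.1%), led by hbae1 and alas2 (log2 fold changes 1.33 and 1.00, edgeR adjusted p = 3.65e-05 and 5.91e-05), and summed to 3991 to 4564 CPM in EWSR1-ERG pools and 2408 to 3533 CPM in wild-type pools. The member tmod1 itself did not pass and its groups overlapped (log2 fold change -0.54, edgeR adjusted p = 0.492). It had 39 counts over the EWSR1-ERG libraries and 34 over the wild-type libraries. The part of smooth muscle and red cells in the members' values was not tested.

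Genes of other muscle programmes changed in both directions, with 17.3% of all tested genes called for comparison. Among 19 further contractile and fast muscle proteins, 5 were lower and 1 higher (31.6% called), with a median log2 fold change of -0.24. The largest fall among them was in mb, the oxygen-binding myoglobin, at 31.1, 41.6 and 48.0 CPM in EWSR1-ERG libraries and 219.9, 237 and 293 CPM in wild-type libraries (log2 fold change -2.62 ± 0.16, edgeR adjusted p = 2.07e-07). The myosin light chain gene zgc:66286, myl13 in the gene name table, was lower as well (log2 fold change -0.49, edgeR adjusted p = 0.0109). Of 16 myogenic regulators, 2 were higher and none was lower (12.5% called, below the share of all tested genes). These were myod1, a master regulator of the muscle lineage, and prdm1a, which specifies slow fibres in zebrafish (log2 fold changes 0.63 and 0.52, edgeR adjusted p = 0.0157 and 0.0267).

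Of 28 genes for excitation-contraction coupling and the neuromuscular junction, 6 were higher and 3 lower (32.1% called), with a median log2 fold change of 0.08. The acetylcholine receptor subunit gene chrng had 14.5, 13.4 and 8.63 CPM in EWSR1-ERG libraries and 2.19, 1.73 and 5.39 CPM in wild-type libraries (log2 fold change 1.99, edgeR adjusted p = 0.00213). The calcium store gene casq1a, for calsequestrin, was lower (log2 fold change -0.80, edgeR adjusted p = 0.00262). Of 33 genes for sarcomere assembly, chaperones and turnover, 7 were higher and 5 lower (36.4% called), with a median of 0.03. The LIM protein gene fhl1a fell by 1.5 on the log2 scale (edgeR adjusted p = 2.83e-05), and the heat shock gene hsp90aa1.2 was higher by 1.17 (edgeR adjusted p = 6.01e-05). Chosen after their values were seen, hsp90aa1.1 and unc45b, whose products fold myosin in zebrafish skeletal muscle, were higher by 0.85 and 0.78 on the log2 scale (edgeR adjusted p = 0.00672 and 0.00457), and smyd1a, a methyltransferase gene of myofibril assembly, was lower by 0.66 (log2 fold change -0.66, edgeR adjusted p = 0.00548).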

How the data were processed

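Whole-embryo RNA was measured in 6 libraries. Per the submitters' processing notes, Bowtie2, SAMtools, DESeq and the Zv9 build were used (for versions, counting tool, annotation and strand: not given in the sources used here). The deposited files hold counts per Ensembl gene, every gene value whole. The unit expected counts is used only because a closing line of the deposited columns holds a number that is not whole; that line is headed as size factors and equals the median-of-ratios size factor of the counts in all 6 libraries, and it was not applied. The 2 lines per file without a gene were left out.

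Genes passing filterByExpr (minimum count 10, minimum total 15) in edgeR 4.0.16 (R 4.3.3) were scaled by TMM and compared by its robust quasi-likelihood F test, 3 pools against 3, without covariates, with Benjamini-Hochberg adjustment over 17557 genes at 0.05. The SE is the absolute log2 fold change divided by the square root of F. Alternatives used DESeq2 1.42.0 and limma 3.58.1, other scalings, other filters, a replicate block and each library left out. The test was checked on simulated counts drawn independently for each gene, which hold no deviation shared by the genes of a library.

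Members and lists were chosen with earlier results of these data known. Fibre classes come from lists: slow, fast, cardiac, non-muscle or smooth muscle, with other lists for heart, smooth muscle, red cells, excitation-contraction coupling, myogenic regulators, assembly and other contractile proteins. Of 200 list entries 185 were matched. Values per library are given for the 15 called members with the smallest adjusted p and for the member with the highest mean CPM of each class. Of each other list, the 2 called genes with the smallest p are named. Any other gene was chosen for mention with its value known. No sequences are printed.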

Additional observations from a re-analysis of the deposited data

How the results depend on the processing

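Leaving out 1 library at a time gave 1 to 10 higher and 15 to 21 lower members, medians of -0.35 to -0.16 on the log2 scale, and 645 to 1334 higher and 981 to 1669 lower genes in the whole table. With both EWSR1-ERG replicate 1 and wild-type replicate 3 left out, a setting chosen after seeing the data, 12 members were higher and 19 lower; neb passed as higher and MYOM3 as lower. Without the 2 libraries the counts in the whole table were 1657 higher and 2085 lower. Under the other settings the counts were 4 to 7 higher and 19 to 22 lower members, with medians of -0.24 to -0.21, and no named member changed sign past the test. DESeq2 called 5 higher and 19 lower, without tnnc1a and tnnt2c, and limma-voom 5 and 20, without tnnt2c. Scaling by totals alone gave 6 and 22, with myhz1.1 lost, tnnt3a gained as higher, and tnnc1b and tnnc2 gained as lower. Upper quartile scaling and the fit without robust estimation each gave 5 and 20, with myhz1.1 lost. Scaling without mitochondrially encoded genes gave 6 and 20, with all 26 calls of the main fit kept and none gained. With the replicate number as a block, 4 members were higher and 21 lower; myhz1.1 and tnnt2c no longer passed and tpm1 did. Same-numbered pools of the groups deviated with correlations of -0.12, 0.09 and -0.02, so the numbers were not taken to pair them. At these depths, genes at a few CPM rest on few counts per library, as in TNNC2 (2 of 2) with 6 to 32 in EWSR1-ERG libraries. With 3 pools a group, no library could be called apart from its group by a test.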

Other observations

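Troponin genes outside the sarcomere list were lower as well. The slow troponin I gene zgc:153662, tnni1c in the gene name table, had 14.9, 16.9 and 16.0 CPM in EWSR1-ERG libraries and 30.3, 37.4 and 45.2 CPM in wild-type libraries, without overlap (log2 fold change -1.23 ± 0.15, edgeR adjusted p = 7.3e-05). The heart troponin genes tnni1b and tnnt2a had log2 fold changes of -0.75 and -0.51 (edgeR adjusted p = 0.00612 and 0.0488), and every EWSR1-ERG library was below every wild-type library for both. These heart genes were chosen after their values were seen.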
